A study of Mus musculus with 6 samples.

Results

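The mouse genes for collagen chains other than type IV were followed across gastrocnemius libraries of transgenic and control mice. A gene was a member when the count table called it protein-coding and its symbol had the form Col, a number, a and a number, leaving out Col4a1 to Col4a6. This gave 38 of the 54532 genes in the table, 11 of them for fibrillar chains, 9 for fibril-associated chains, 6 for beaded chains and 12 for other chains. RNA from gastrocnemius, a calf muscle made mostly of fast fibres, was sequenced in 6 libraries. The 3 libraries labelled MP came from mice with the genotype Mck cre; Tg Glut1-Hk2-Pfkfb3, which adds to the Cre driver a transgene named for a glucose transporter, a hexokinase and the enzyme that makes the phosphofructokinase activator fructose bisphosphate. The 3 libraries labelled Ctrl came from Mck cre mice without that transgene. Every mouse of both groups was C57BL/6J and 3 months old, carried the Cre driver and had been given 0.2% doxycycline to drink from 4 weeks of age. The muscle creatine kinase promoter of the driver is active in striated muscle fibres, whereas most of the collagen of a muscle is made by cells between the fibres. What MP stands for, and whether the 3 libraries of a group came from separate animals, is not stated in the labels, so the p-values below cover only how much these samples vary.

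Collagens are built from 3 chains wound into a triple helix. Fibrillar collagens (types I, III and V in muscle) assemble into the fibrils of the epimysium, perimysium and endomysium, and type V starts fibrils and limits their width. Fibril-associated collagens sit on fibril surfaces, beaded type VI forms microfilaments next to the muscle fibre's basement membrane, and the remaining types include basement-membrane proteoglycans (XV, XVIII), short-chain network collagens (VIII, X), anchoring fibrils (VII) and transmembrane collagens (XIII, XVII, XXIII, XXV). In muscle, collagen VI deficiency causes myopathy in mice and humans, and fibroblasts and fibro-adipogenic progenitors are the main source of fibrillar collagen.

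Library totals were 23381569, 19546456 and 23340923 counts in MP1, MP2 and MP3, against 21796564, 24137800 and 24665024 counts in Ctrl1, Ctrl2 and Ctrl3. Of the genes named in the transgene, Pfkfb3 had 120, 476 and 542 CPM (counts scaled to TMM library sizes) in MP1 to MP3, against 579, 1096 and 1585 CPM in Ctrl1 to Ctrl3, and its log2 fold change of -1.52 ± 0.57 did not pass (edgeR adjusted p = 0.196). Slc2a1 was at -0.63 ± 0.31 (edgeR adjusted p = 0.290) and Hk2, the one with a higher mean in MP libraries, at 0.44 ± 0.27 (edgeR adjusted p = 0.381), with 341, 168 and 182 CPM in MP libraries against 156, 165 and 187 CPM in Ctrl libraries. None of the 3 genes was called higher in MP libraries and Pfkfb3 was lower in each of them, so these counts do not bear out the group label. They cannot decide whether the label is right, because the transgene's reads count at a mouse gene only where they match. Directions below are those between libraries labelled MP and libraries labelled Ctrl. Ctrl1 stood apart: its correlations with the other libraries over all tested genes, on log2 CPM, were 0.947 to 0.961, against 0.962 to 0.988 among the other 5, and its summed level of 12 lymphocyte markers was 563 CPM, against 7.69 to 60.2 CPM in MP libraries and 8.51 and 15.0 CPM in Ctrl2 and Ctrl3. The calls among the collagens and the related lists are therefore given with and without Ctrl1. Over all 14973 genes that passed the filter on low counts, edgeR's quasi-likelihood test at a Benjamini-Hochberg adjusted p under 0.05 called 0.788% higher and 0.508% lower in MP libraries.

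Type I and III chains led the members in every library. Levels per transcript length are the deposited FPKM (fragments scaled to transcript length and to a library size other than the plain count total). They averaged 38.5 for Col1a1, 25.4 for Col1a2 and 17.3 for Col3a1 over the 6 libraries, followed by 13.9 for Col6a1 and 12.1 for Col5a3. The lowest were Col25a1 at 0.0392 FPKM and Col10a1, the hypertrophic-cartilage collagen, at 0.0118 FPKM. Fibrillar genes made up 72.4% of the members' summed FPKM, beaded genes 15.0%, other genes 7.19% and fibril-associated genes 5.39%. Col1a1, Col1a2 and Col3a1 alone held 60.7%, 47.6% and 52.7% of the members' summed FPKM in MP1 to MP3, against 58.5%, 56.8% and 58.5% in Ctrl1 to Ctrl3. These shares overlapped between the groups, and both the highest and the lowest were in MP libraries.

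**Figure D1:**
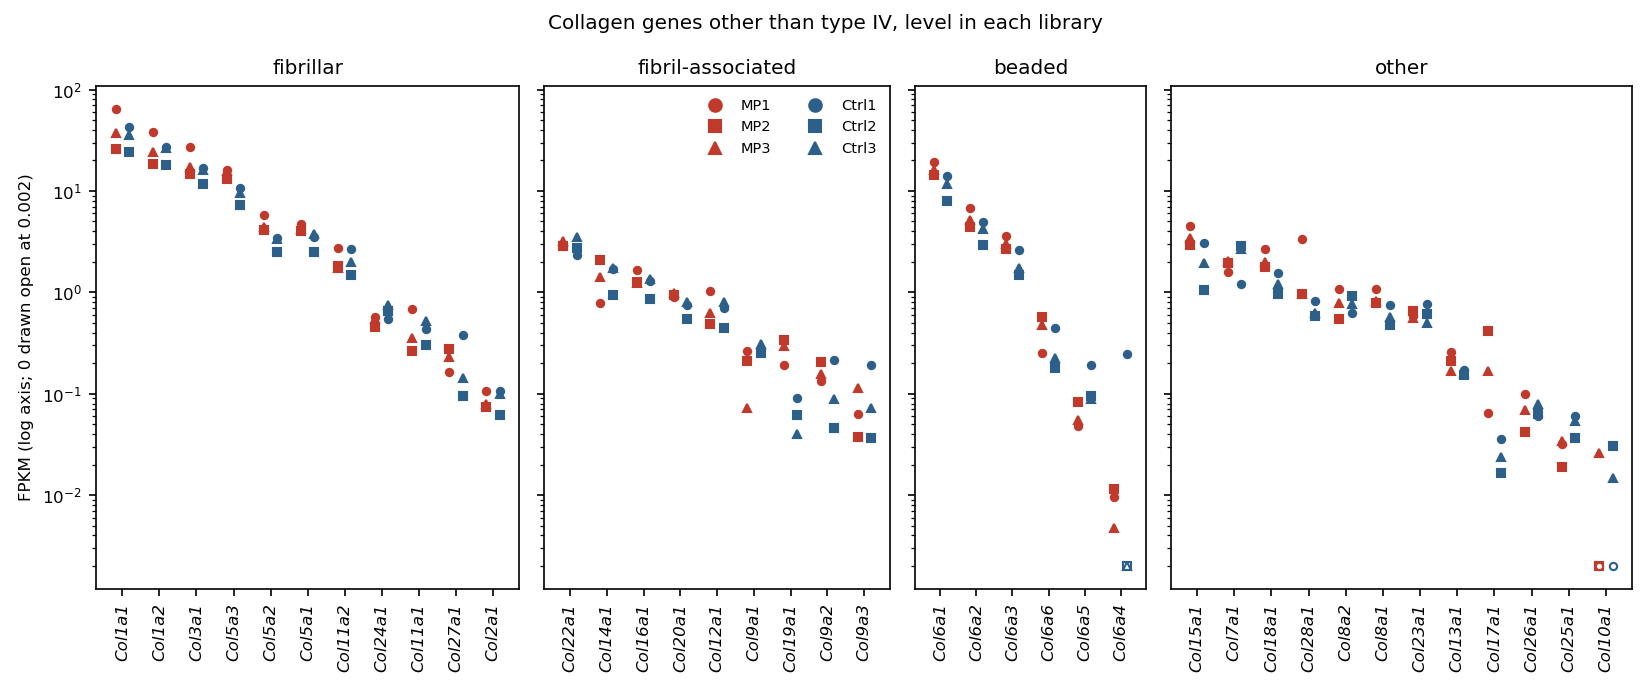
Level of each of the 38 genes in each library, in FPKM on a log axis, with MP libraries left of Ctrl libraries and libraries at 0 drawn as open symbols. Levels run from Col1a1, at a mean of 38.5 FPKM, to Col10a1, at 0.0118 FPKM.

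Summed over all 38 members, the level was 214, 124 and 150 FPKM in MP1 to MP3, against 147, 95.4 and 134 FPKM in Ctrl1 to Ctrl3. MP1 was highest, Ctrl2 was lowest, and the other 4 libraries overlapped between the groups. The ratio of the group means was 1.30, or 1.42 without Ctrl1 and 1.09 without MP1. Fibrillar genes summed to 161, 83.4 and 106 FPKM in MP libraries, against 108, 69.0 and 98.7 FPKM in Ctrl libraries, a ratio of 1.27 that was 1.03 without MP1. Beaded genes summed to 30.1, 22.2 and 24.6 FPKM in MP libraries and 22.5, 12.7 and 17.99 FPKM in Ctrl libraries. Their ratio was 1.45, or 1.32 without MP1. The group sums of fibrillar, beaded and fibril-associated genes overlapped between MP and Ctrl. Only the other collagens did not overlap, with 15.3, 10.3 and 11.03 FPKM in MP libraries against 9.15, 7.76 and 8.58 FPKM in Ctrl libraries. The ratio was 1.44, close to that of the beaded genes, and 1.26 without MP1. The separation was narrow in CPM without Col15a1, the highest of these genes. The lowest MP sum was then 53.6 CPM and the highest Ctrl sum 52.3 CPM.

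**Figure D2:**
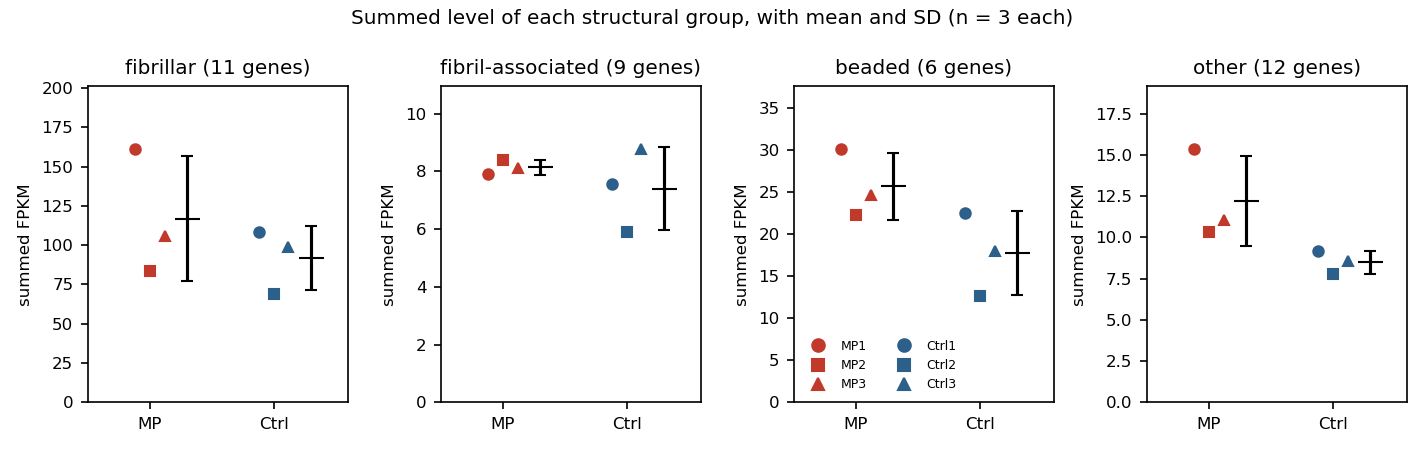
Summed FPKM of the 4 structural groups in each library, with the mean and SD of 3 libraries per group, MP left of Ctrl. Fibrillar sums range from 83.4 to 161 FPKM in MP libraries and from 69.0 to 108 FPKM in Ctrl libraries.

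Of the 38 members, 34 passed the filter on low counts and 0 of these 34 passed edgeR's test in either direction. The smallest adjusted p was 0.0575, for Col19a1. At an unadjusted p under 0.05, 9 members (26.5%) were higher and 1 was lower in MP libraries, beside 10.5% and 10.3% of all tested genes. A positive log2 fold change was found in 26 of the 34 (76.5%), against 46.6% of all tested genes, and the median log2 fold change was 0.28 over the members and -0.03 over all genes. The CPM values of 10 members (29.4%) lay higher in every MP library than in any Ctrl library, against 13.8% of all genes, and those of 2 members (5.88%) lay lower, against 13.6%. The remaining 22 overlapped. By structure, the median log2 fold change was 0.18 over 11 fibrillar genes (9 positive), 0.19 over 8 fibril-associated genes (6 positive), 0.56 over 5 beaded genes (4 positive) and 0.23 over 10 other genes (7 positive). DESeq2 called 3 members higher (Col19a1, Col5a3 and Col18a1), where it called 4.34% of genes higher, while limma-voom and limma on log2 FPKM called none. An edgeR fit restricted to genes with at least 10 counts in every library of 1 group called Col19a1 alone, where it called 0.99% of genes higher. Col19a1 met that rule only through the MP libraries, where it was high, since its Ctrl counts were 15, 9 and 6. This call is therefore no separate support. At an adjusted p under 0.1, edgeR called Col19a1 and Col5a3 higher, and 2.8% of all genes.

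Leaving out Ctrl1, the library with the lymphocyte signal, raised the calls over all genes as well as over the collagens. The fit was repeated without each of the 6 libraries in turn. Without Ctrl1, edgeR called 6 of the 34 members higher in MP libraries (17.6%), beside 6.08% of all genes, and 1 lower (2.94%), beside 6.99% of all genes. The 6 were Col6a1, Col6a3, Col5a3, Col15a1, Col18a1 and Col19a1, and the lower one was Col7a1. Without any other single library no member passed. The median log2 fold change of the members was 0.45 without Ctrl1, 0.17 without MP1 and 0.10 without Ctrl2.

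**Figure D3:**
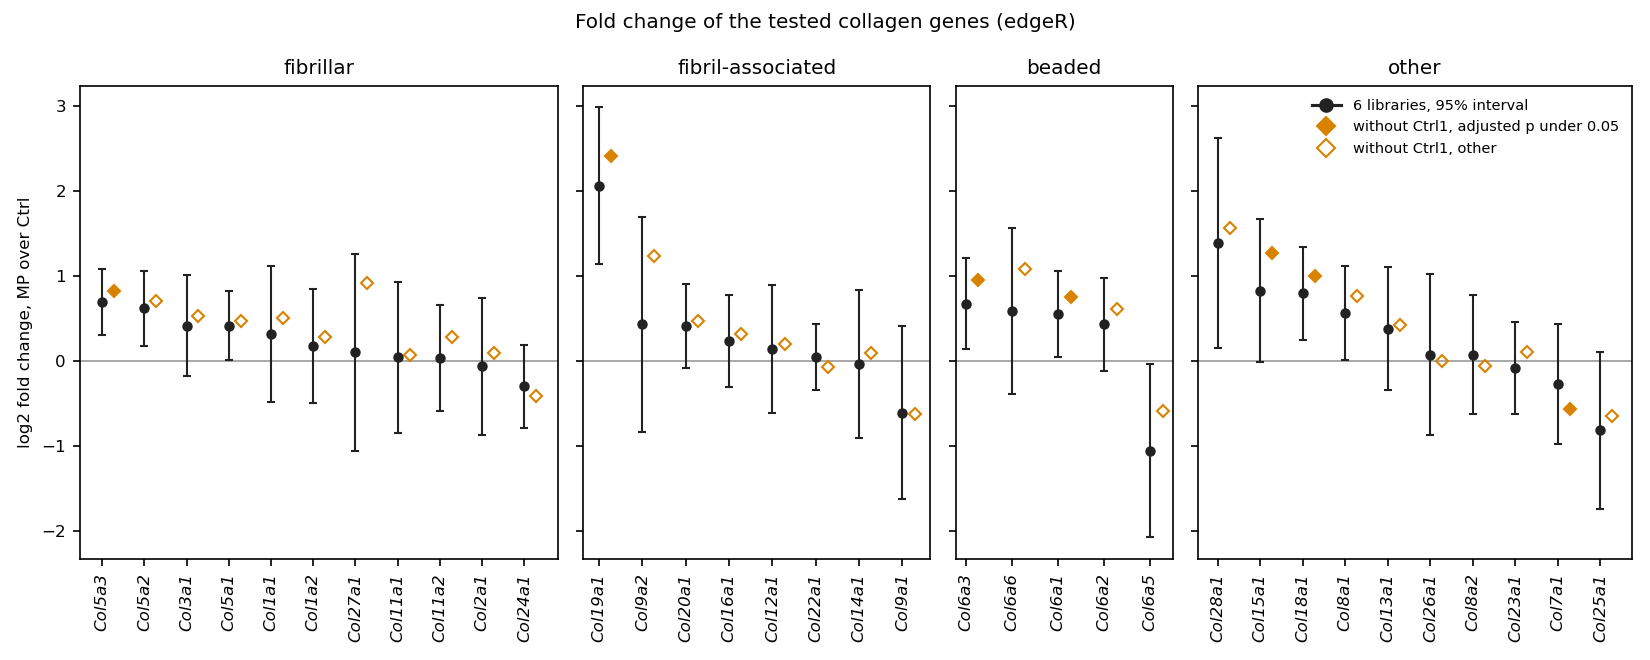
Log2 fold change of the 34 tested members, MP over Ctrl, from edgeR. Black points with bars show all 6 libraries with 95% intervals, and diamonds the fit without Ctrl1, filled where the adjusted p was under 0.05. Col19a1 has the highest value, 2.06, and Col6a5 the lowest, -1.05.

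The spread within each group was shared by many collagens. MP1 was the highest library for 20 of the 34 tested members and Ctrl2 the lowest for 22. On log2 CPM relative to each gene's mean over the 6 libraries, the members' median was 0.46 in MP1, -0.0036 in MP2 and 0.03 in MP3, against 0.08 in Ctrl1, -0.54 in Ctrl2 and -0.03 in Ctrl3. Over all tested genes these medians lay between -0.01 and 0.01. Thus MP2, MP3, Ctrl1 and Ctrl3 were close to each other in the median collagen, and MP1 and Ctrl2 lay at the ends. Ctrl1 was the highest library for 6 tested members (Col23a1, Col27a1, Col9a2, Col6a5, Col2a1 and Col25a1), and Ctrl2 was the lowest for 3 of these, Col27a1, Col9a2 and Col2a1. In bulk tissue, a change in the number of collagen-making cells and a change in RNA per cell cannot be told apart.

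**Figure D4:**
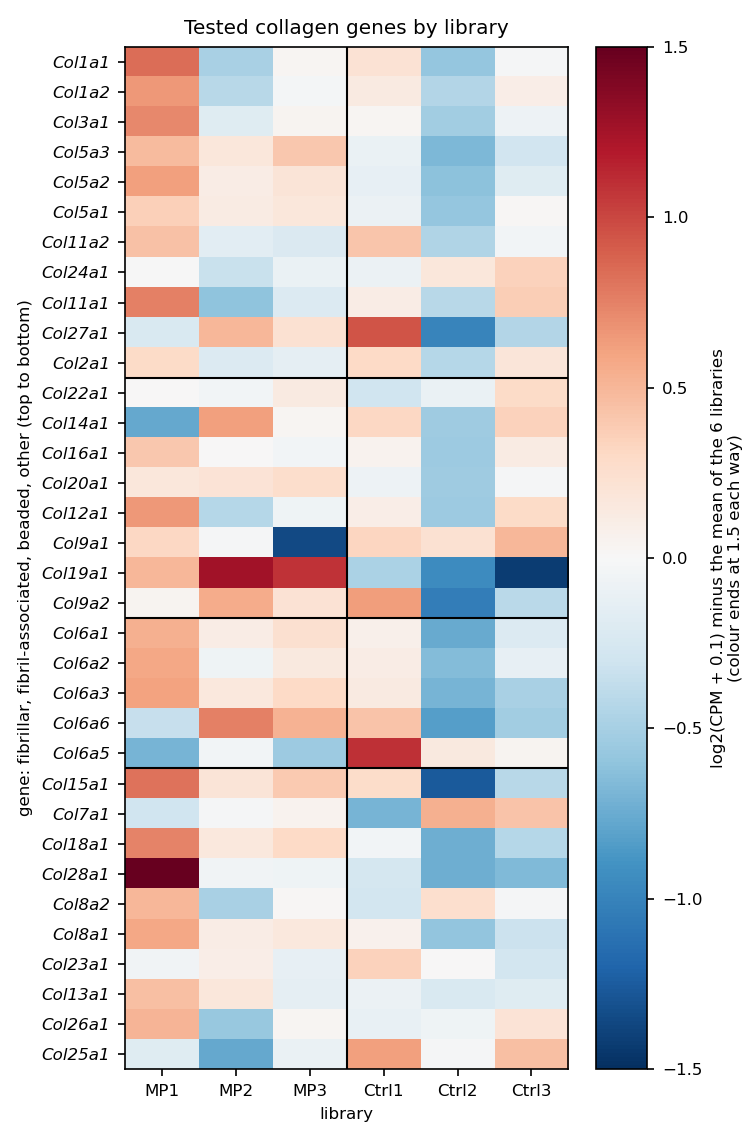
Heat map of log2(CPM + 0.1) of the 34 tested members in each library, minus the gene's mean over the 6 libraries, MP libraries left of Ctrl libraries. MP1 is red for most rows and Ctrl2 is blue for most rows, with members' medians of 0.46 and -0.54.

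Among the fibrillar genes, Col1a1 (chr11:94936224-94953042, plus strand) and Col1a2 (chr6:4504814-4541544, plus strand) encode the chains of type I, the bulk collagen of tendon and muscle sheaths. Col1a1 had 64.6, 26.1 and 37.4 FPKM in MP1 to MP3, against 42.3, 24.5 and 36.0 FPKM in Ctrl1 to Ctrl3. MP1 was high, and the other MP libraries lay within the Ctrl range. Its log2 fold change was 0.32 ± 0.34 (SE; edgeR adjusted p = 0.629), with a 95% interval from -0.48 to 1.12, and it was -0.11 without MP1. Col1a2 had 38.2, 18.4 and 24.3 FPKM in MP libraries, against 26.9, 18.1 and 26.5 FPKM in Ctrl libraries, again with MP1 alone above the Ctrl range. Its log2 fold change was 0.18 ± 0.29 (edgeR adjusted p = 0.753), and -0.15 without MP1. The ratio of Col1a2 to Col1a1 FPKM was 0.649 ± 0.0569 in MP libraries and 0.703 ± 0.0579 in Ctrl libraries (SD, n = 3 each), and the groups overlapped.

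Col3a1 (chr1:45311538-45349706, plus strand) encodes the chain of type III, which is found with type I in pliable tissue. It had 27.4, 14.8 and 17.3 FPKM in MP libraries and 17.0, 11.6 and 16.0 FPKM in Ctrl libraries. Only MP2 lay inside the Ctrl range. The log2 fold change of 0.42 ± 0.26 did not pass (edgeR adjusted p = 0.386), and it was 0.12 without MP1.

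Type V chains had the most even separation among the fibrillar genes. Col5a3 (chr9:20770050-20815067, minus strand), whose chain enters type V heterotrimers and which in mice is expressed in muscle and fat, had 16.0, 13.2 and 15.6 FPKM in MP libraries, against 10.8, 7.28 and 9.60 FPKM in Ctrl libraries. All 3 MP values were higher than every Ctrl value. The log2 fold change was 0.69 ± 0.17 (1.62-fold; 95% interval 0.30 to 1.08) and missed the threshold (edgeR adjusted p = 0.0908). It was 0.82 without Ctrl1 (edgeR adjusted p = 0.0228) and between 0.55 and 0.82 in the fits without each library, and DESeq2 gave an adjusted p of 0.0103. Col5a2 (chr1:45374321-45503282, minus strand), the partner chain of the common type V trimer, had 5.81, 4.11 and 4.41 FPKM in MP libraries, against 3.47, 2.49 and 3.36 FPKM in Ctrl libraries. Its groups also did not overlap, and its log2 fold change was 0.62 ± 0.19 (edgeR adjusted p = 0.135). Col5a1 (chr2:27886425-28039514, plus strand), the chain needed for fibrils to start, had 4.73, 4.06 and 4.22 FPKM in MP libraries, against 3.48, 2.48 and 3.78 FPKM in Ctrl libraries. It was separated by a narrow margin, at 0.42 ± 0.17 (edgeR adjusted p = 0.232). Antisense transcripts overlap 2.5% of its exonic bases in the GENCODE M21 annotation, and the strand setting of the counts is not given in the sources used here.

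Ratios between the type V chains are given per library and were not tested. Col5a3 over Col5a1, in FPKM, was 3.39, 3.24 and 3.69 in MP libraries, against 3.10, 2.94 and 2.54 in Ctrl libraries, with no overlap. Col5a2 over Col5a1 was 1.23, 1.01 and 1.04 in MP libraries, against 0.996, 1.004 and 0.888 in Ctrl libraries, where MP2 lay just over the highest Ctrl library. Relative to Col1a1, Col5a3 was 0.390 ± 0.131 in MP libraries and 0.273 ± 0.0220 in Ctrl libraries (SD, n = 3 each), and MP1 lay below all 3 Ctrl values.

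The DNA just before the start sites of these genes is shown because the fibrillar genes are regulated in part through it and the 3 below differ widely in base composition. Each sequence is the 250 bases before the RefSeq start site on the gene's own strand (build GRCm38.p6), 5′ to 3′. Capitals mark the core of the TATA box, TATAAA, the binding motif of the nuclear factor Y complex, CCAAT, the binding motif of Sp1, GGGCGG, or the binding motif of Smad proteins, CAGAC, each in either orientation. The windows are Col5a3 at chr9:20815068-20815317 on the minus strand, Col5a1 at chr2:27886175-27886424 on the plus strand and Col3a1 at chr1:45311288-45311537 on the plus strand.
Col5a3: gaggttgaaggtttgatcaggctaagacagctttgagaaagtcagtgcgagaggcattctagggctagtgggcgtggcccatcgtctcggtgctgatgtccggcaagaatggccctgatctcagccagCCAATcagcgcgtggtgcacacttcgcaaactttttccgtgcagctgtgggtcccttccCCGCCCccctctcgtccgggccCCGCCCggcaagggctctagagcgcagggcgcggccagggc
Col5a1: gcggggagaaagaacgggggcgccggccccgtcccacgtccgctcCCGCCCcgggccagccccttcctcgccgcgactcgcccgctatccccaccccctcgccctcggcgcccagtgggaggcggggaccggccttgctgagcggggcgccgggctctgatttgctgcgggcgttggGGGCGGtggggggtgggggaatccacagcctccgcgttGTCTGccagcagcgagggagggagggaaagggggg
Col3a1: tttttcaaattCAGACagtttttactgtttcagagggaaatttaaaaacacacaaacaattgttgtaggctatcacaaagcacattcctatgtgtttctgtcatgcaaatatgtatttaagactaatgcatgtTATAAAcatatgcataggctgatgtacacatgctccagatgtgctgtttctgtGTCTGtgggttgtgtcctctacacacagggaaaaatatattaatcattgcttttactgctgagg
GC content was 62.8% for Col5a3, 76.4% for Col5a1 and 35.2% for Col3a1. The Col5a3 window held CCAAT and GGGCGG, the Col5a1 window GGGCGG and CAGAC, and the Col3a1 window TATAAA and CAGAC. Over the 33 windows listed by RefSeq for 30 of the 38 members, GGGCGG was in 19, CAGAC in 16, CCAAT in 10 and TATAAA in 5. Over all 32851 windows these motifs were in 32.7%, 42.2%, 33.8% and 12.4%. A match is a description of the sequence only.

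The lesser fibrillar genes overlapped between the groups. Col11a2, whose chain joins type V and XI trimers, had 1.76 to 2.74 FPKM in MP libraries and 1.49 to 2.69 FPKM in Ctrl libraries, and Col11a1 had 0.262 to 0.677 FPKM in MP libraries and 0.300 to 0.525 FPKM in Ctrl libraries. Both had a log2 fold change of 0.04 (edgeR adjusted p of 0.955 and 0.960). The intervals, from -0.59 to 0.66 for Col11a2 and from -0.84 to 0.93 for Col11a1, leave room for change in either direction. Col24a1 was at -0.30 and Col27a1 at 0.11, or 0.92 without Ctrl1 (edgeR adjusted p = 0.0940). Col27a1, a cartilage collagen, was highest in Ctrl1 (4.96 CPM) and lowest in Ctrl2 (1.23 CPM), with the MP libraries between them at 2.15, 3.64 and 3.00 CPM. Col2a1, the main collagen of cartilage, ran from 0.0734 to 0.106 FPKM in MP libraries and from 0.0613 to 0.108 FPKM in Ctrl libraries.

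Col19a1 (chr1:24261890-24587472, minus strand) had the lowest p of all members and the largest fold change among those tested. Its chain forms type XIX, a rare fibril-associated collagen of basement membrane zones that in mice is made during muscle differentiation and is needed for the muscle of the oesophageal sphincter. Counts were 32, 48 and 51 in MP1 to MP3, against 15, 9 and 6 in Ctrl1 to Ctrl3, and levels were 1.32, 2.33 and 2.04 CPM in MP libraries, against 0.626, 0.425 and 0.277 CPM in Ctrl libraries. The lowest MP value was above the highest Ctrl value. The log2 fold change was 2.06 ± 0.39 (4.18-fold; 95% interval 1.15 to 2.98) and missed the threshold over all genes (edgeR adjusted p = 0.0575). Without Ctrl1 it was 2.41 (edgeR adjusted p = 0.0207), over all fits without 1 library it lay between 1.82 and 2.41 with adjusted p from 0.0207 to 0.209, and DESeq2 gave an adjusted p of 0.00491. In the filter on low counts, whose threshold was 0.428 CPM, all 3 MP libraries and 1 Ctrl library were over the threshold, so the gene entered the test through the group where it was high. No other gene overlaps its exons in the annotation.

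The 250 bases before the RefSeq start of Col19a1 (chr1:24587438-24587687, minus strand, GRCm38.p6) are shown because this member had the lowest p. The capitals mark CAGAC, read on the other strand as GTCTG.
Col19a1: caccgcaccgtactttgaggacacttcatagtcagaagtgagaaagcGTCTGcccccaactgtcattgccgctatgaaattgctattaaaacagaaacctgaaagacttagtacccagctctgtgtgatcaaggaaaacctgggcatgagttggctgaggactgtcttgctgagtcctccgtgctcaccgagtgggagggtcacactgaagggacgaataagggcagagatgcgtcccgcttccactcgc
The window held none of the other 3 motifs. RefSeq's start lies 35 bases inside the gene's span in the count table.

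The more abundant fibril-associated genes did not separate. Col22a1, the collagen of the myotendinous junction, was the highest of them, with 2.89, 2.83 and 3.23 FPKM in MP libraries and 2.35, 2.72 and 3.55 FPKM in Ctrl libraries. The log2 fold change was 0.05 ± 0.17 (edgeR adjusted p = 0.882), with an interval from -0.33 to 0.44. Col14a1, which binds fibrils through decorin, had 0.788, 2.11 and 1.41 FPKM in MP libraries and 1.69, 0.935 and 1.74 FPKM in Ctrl libraries, and unlike type I it was lowest in MP1. Col12a1, a tension-bearing collagen of fascia and tendon, was at a log2 fold change of 0.14 ± 0.32 and Col16a1 at 0.24 ± 0.23. Col20a1 (chr2:180986535-181018363, plus strand) did not overlap, with 4.67, 4.80 and 5.01 CPM in MP libraries and 3.92, 2.84 and 4.10 CPM in Ctrl libraries, but did not pass at 0.41 ± 0.21 (edgeR adjusted p = 0.309). Of the type IX chains of cartilage, Col9a1 was at -0.61 ± 0.44 and Col9a2 at 0.43 ± 0.54 (1.24 without Ctrl1), and both overlapped. Col9a3 was not tested and had 6, 3 and 11 counts in MP libraries and 18, 3 and 6 counts in Ctrl libraries.

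The 3 main type VI genes all had higher means in MP libraries, and none passed the test with all 6 libraries. Col6a1 and Col6a2, neighbours on chromosome 10, and Col6a3 on chromosome 1 encode the chains of the common trimer. Col6a1 (chr10:76708792-76726168, minus strand) had 19.3, 14.5 and 16.0 FPKM in MP libraries, against 14.1, 7.98 and 11.7 FPKM in Ctrl libraries, with MP2 just above Ctrl1 and no overlap. The log2 fold change was 0.56 ± 0.22 (edgeR adjusted p = 0.208), and 0.75 without Ctrl1 (edgeR adjusted p = 0.0469). Over all fits without 1 library it lay between 0.36 and 0.75, with edgeR adjusted p from 0.0469 to 0.414. Col6a3 (chr1:90765923-90843971, minus strand) had 3.62, 2.69 and 3.00 FPKM in MP libraries, against 2.62, 1.48 and 1.72 FPKM in Ctrl libraries. These did not overlap either. The log2 fold change was 0.67 ± 0.23 (edgeR adjusted p = 0.169), and 0.96 without Ctrl1 (edgeR adjusted p = 0.0185). Fits without 1 library gave 0.51 to 0.96, with edgeR adjusted p from 0.0185 to 0.390. Col6a2 (chr10:76595762-76623630, minus strand) had 6.84, 4.38 and 5.13 FPKM in MP libraries, against 4.94, 2.92 and 4.23 FPKM in Ctrl libraries, with MP2 inside the Ctrl range. It was at 0.43 ± 0.24 (edgeR adjusted p = 0.333). Col6a2 over Col6a1 was 0.354, 0.302 and 0.322 in MP libraries and 0.351, 0.366 and 0.361 in Ctrl libraries. The ratios overlapped. Col6a3 over Col6a1 was 0.187 ± 0.00136 in MP libraries and 0.173 ± 0.0225 in Ctrl libraries (SD, n = 3 each).

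The alternative type VI chains lie in tandem on chromosome 9, between 105687809 and 106096783, and had less even values. Col6a6, the alternative chain found in skeletal muscle, had 2.36, 5.19 and 4.37 CPM in MP libraries and 4.09, 1.65 and 2.07 CPM in Ctrl libraries, with a log2 fold change of 0.59 ± 0.42, or 1.08 without Ctrl1 (edgeR adjusted p = 0.0867). MP1, the highest library for Col6a1, was the lowest MP library here. Col6a5 (chr9:105856078-105960643, minus strand) was one of the tested members lower in every MP library, with 0.455, 0.776 and 0.521 CPM in MP libraries against 1.84, 0.898 and 0.830 CPM in Ctrl libraries. Its log2 fold change was -1.05 ± 0.44 (edgeR adjusted p = 0.229), and -0.58 without Ctrl1. Col6a4 was not tested: it had 2, 2 and 1 counts in MP libraries and 51, 0 and 0 counts in Ctrl libraries. All but 5 of its counts thus came from Ctrl1, the library with 563 CPM of lymphocyte markers, and whether the signals are linked was not tested. The exons of Col6a4 overlap opposite-strand genes over 3.39% of their length.

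Among the other collagens, the basement-membrane members had higher means in MP libraries, and none passed the test with all 6 libraries. Col18a1 (chr10:77052178-77166548, minus strand), a heparan sulfate proteoglycan of vascular and epithelial basement membranes and the source of endostatin, had 19.0, 12.6 and 13.9 CPM in MP libraries, against 10.97, 6.76 and 8.39 CPM in Ctrl libraries. The groups did not overlap. Its log2 fold change was 0.80 ± 0.23 (edgeR adjusted p = 0.129), and 1.002 without Ctrl1 (edgeR adjusted p = 0.0305). Over all fits without 1 library it lay between 0.62 and 1.002, with edgeR adjusted p from 0.0305 to 0.320. Col15a1, which ties muscle and capillary basement membranes to fibrils, had 28.9, 18.7 and 21.5 CPM in MP libraries, against 19.8, 6.76 and 12.3 CPM in Ctrl libraries, with MP2 inside the Ctrl range. It was at 0.83 ± 0.36 (edgeR adjusted p = 0.244), and 1.27 without Ctrl1 (edgeR adjusted p = 0.0338). Fits without 1 library gave 0.52 to 1.27, with edgeR adjusted p from 0.0338 to 0.472. Col8a1 (chr16:57624258-57754737, minus strand), a short-chain collagen of vessel walls, had 8.51, 6.16 and 6.33 CPM in MP libraries, against 5.92, 3.73 and 4.52 CPM in Ctrl libraries. It did not overlap, at 0.56 ± 0.24 (edgeR adjusted p = 0.236), whereas Col8a2, which encodes the other type VIII chain, overlapped at 0.07 ± 0.30.

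Col28a1 (chr6:7997808-8192617, minus strand), a collagen found in mice around Schwann cells of peripheral nerve, had the largest fold change after Col19a1, most of it in MP1. Levels were 16.8, 4.70 and 4.65 CPM in MP libraries, against 4.05, 2.88 and 3.04 CPM in Ctrl libraries. All MP values were higher, MP1 by far. The log2 fold change was 1.39 ± 0.53 (edgeR adjusted p = 0.199), and 0.50 without MP1. Schwann cell markers gave 0 calls among 7. They summed to 429, 270 and 254 CPM in MP1 to MP3, against 398, 442 and 268 CPM in Ctrl1 to Ctrl3. MP1 was the highest MP library for these markers too, and Ctrl2 was higher still. Whether the markers and Col28a1 are linked was not tested.

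**Figure D5:**
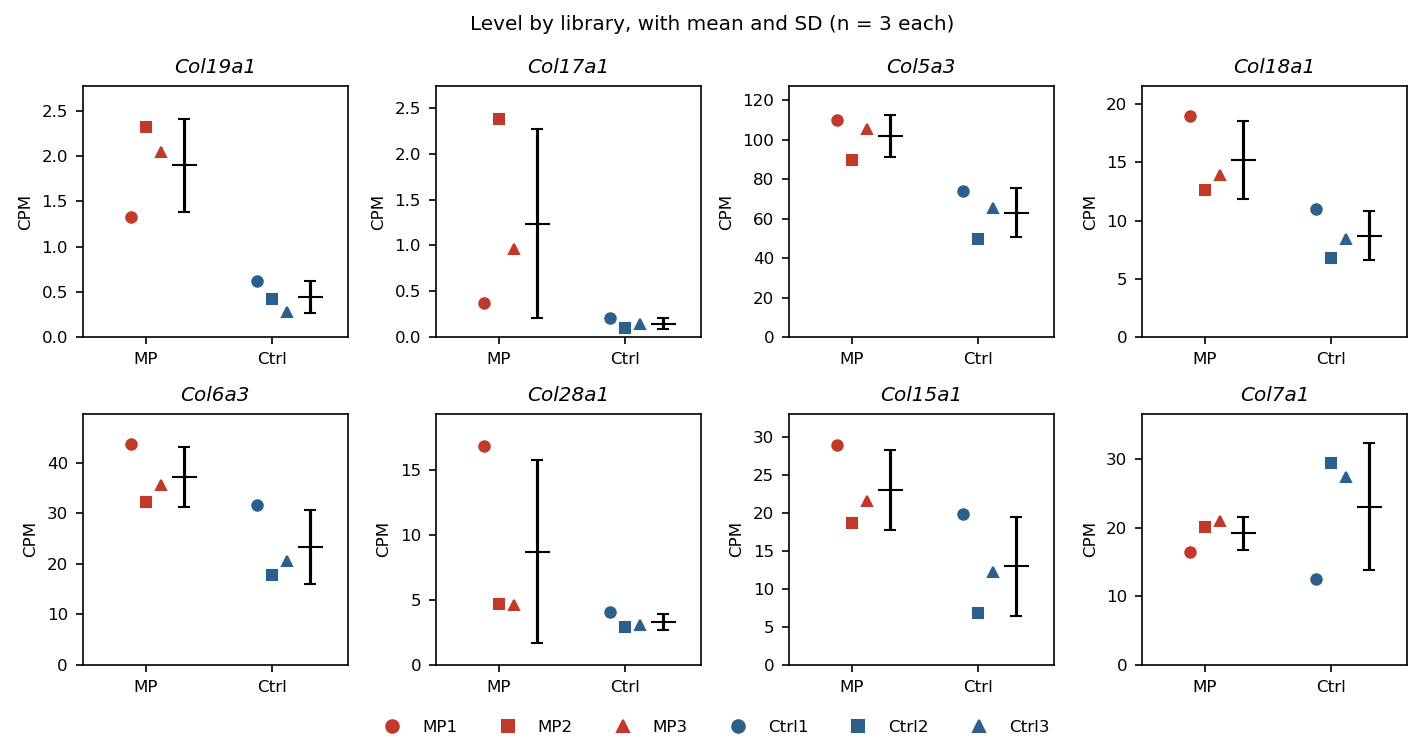
CPM of 8 members in each library, with the mean and SD of 3 libraries per group, MP left of Ctrl. Col19a1, Col17a1, Col5a3, Col18a1, Col6a3 and Col28a1 do not overlap between the groups, and Col15a1 and Col7a1 do.

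Col7a1, the anchoring-fibril collagen known from skin, was the only member called lower without Ctrl1. It had 16.4, 20.1 and 21.0 CPM in MP libraries, against 12.5, 29.4 and 27.3 CPM in Ctrl libraries, so that Ctrl1 lay below every MP library and Ctrl2 and Ctrl3 above. With all libraries its log2 fold change was -0.27 ± 0.30 (edgeR adjusted p = 0.647), and without Ctrl1 it was -0.57 (edgeR adjusted p = 0.0421).

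Transmembrane collagens differed from one another. Col17a1 (chr19:47646344-47692094, minus strand), a hemidesmosome protein of epithelia, failed the filter with 9, 49 and 24 counts in MP libraries, against 5, 2 and 3 counts in Ctrl libraries. That is 0.372, 2.38 and 0.961 CPM in MP libraries and 0.209, 0.0945 and 0.138 CPM in Ctrl libraries, and the groups did not overlap. The pooled ratio was 7.85, with a 95% interval for counting error alone of 4.06 to 17.0. Without the filter edgeR gave an adjusted p of 0.173. Col25a1, which in mice is made by muscle fibres and needed for motor axons to enter muscle, was also lower in every MP library. It had 0.413, 0.242 and 0.441 CPM in MP libraries against 0.792, 0.473 and 0.691 CPM in Ctrl libraries, from 26 and 44 counts in all, and did not pass at -0.81 ± 0.40 (edgeR adjusted p = 0.291). Col13a1, a collagen of the neuromuscular junction, was at 0.38 ± 0.31 and Col23a1 at -0.08 ± 0.23. Outside the transmembrane types, Col26a1 was at 0.08 ± 0.41. Col10a1 had 0, 0 and 2 counts in MP libraries and 0, 2 and 1 counts in Ctrl libraries, at or under 3 counts in each. Scaling by library totals alone turned the sign of Col14a1, Col23a1 and Col2a1, none of them called.

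The window before the RefSeq start of Col17a1 (chr19:47692043-47692292, minus strand, GRCm38.p6) is shown for contrast with that of Col19a1, since both were low genes with separated groups. Capitals mark TATAAA and CCAAT, which is read on the other strand as ATTGG.
Col17a1: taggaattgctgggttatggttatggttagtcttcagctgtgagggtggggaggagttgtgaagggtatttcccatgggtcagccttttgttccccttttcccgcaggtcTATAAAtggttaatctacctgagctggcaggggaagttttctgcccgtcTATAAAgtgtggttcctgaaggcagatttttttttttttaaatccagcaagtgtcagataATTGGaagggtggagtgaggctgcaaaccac
The window is 46.0% GC, against 52.0% for Col19a1, and held neither GGGCGG nor CAGAC. RefSeq's start lies 52 bases inside the gene's span in the count table.

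Genes that make, cut and bind collagen chains were then examined by list, together with markers of the cells a muscle sample can hold. Of 188 distinct genes tested over 20 lists, edgeR called 3 higher (1.6%, beside 0.788% of all genes) and 0 lower (beside 0.508%). At an unadjusted p under 0.05, 55 were higher (29.3%, beside 10.5% of all genes) and 7 lower (3.72%, beside 10.3%). DESeq2 called 34 higher (18.1%, beside 4.34%) and 2 lower (1.06%, beside 3.5%), and edgeR without Ctrl1 called 35 higher (18.6%, beside 6.08%) and 3 lower (1.6%, beside 6.99%). For the counts of positive log2 fold changes per list, here and below, the share over all tested genes was 46.6% and the median -0.03. The lists were chosen with earlier results of these data known, so these counts are not independent support. Of 20 tested genes for hydroxylation, folding and export of procollagen, 0 passed in either direction, 16 had positive log2 fold changes and the median was 0.36. The lowest p values were those of Plod1, a lysyl hydroxylase, with 58.8 ± 7.63 CPM in MP libraries and 38.5 ± 3.09 CPM in Ctrl libraries (log2 fold change 0.61 ± 0.13, edgeR adjusted p = 0.0757), and P4ha2, a prolyl hydroxylase (0.45 ± 0.13, edgeR adjusted p = 0.132). Of 12 tested genes for propeptide cleavage and crosslinking, 0 passed and 10 were positive (median 0.44), led by the lysyl oxidases Loxl3 (0.84 ± 0.21, edgeR adjusted p = 0.0934) and Loxl4 (1.36 ± 0.46, edgeR adjusted p = 0.164). Of 12 tested genes for breakdown and uptake, 1 rose, 0 fell and 9 were positive, with a median of 0.36. The one that rose was Mmp15, a membrane-anchored metalloproteinase, with 36.9, 49.1 and 47.5 CPM in MP libraries against 23.6, 19.8 and 20.1 CPM in Ctrl libraries (1.07 ± 0.15, edgeR adjusted p = 0.0289). Among 8 tested collagen receptors 0 passed and 8 were positive, with a median of 0.44. Itgb1, the common beta subunit of collagen-binding integrins, had 334 ± 9.80 CPM in MP libraries and 208 ± 28.9 CPM in Ctrl libraries (0.68 ± 0.14, edgeR adjusted p = 0.0663). Cspg4, a pericyte proteoglycan that binds type VI, was at 0.96 ± 0.28 (edgeR adjusted p = 0.125). Without Ctrl1, edgeR called 2 genes of hydroxylation, folding and export, 3 of cleavage and crosslinking, 3 of breakdown and uptake and 1 receptor, all of them higher in MP libraries.

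Of 16 fibril-binding proteoglycans and glycoproteins 0 passed and 14 were positive, with a median of 0.39. Decorin (Dcn) had 575 ± 51.5 CPM in MP libraries and 410 ± 81.3 CPM in Ctrl libraries (0.49 ± 0.18, edgeR adjusted p = 0.193), and Ogn was at 0.39 ± 0.15 (edgeR adjusted p = 0.196). Of 21 genes of TGF-beta and other fibrogenic signals, 0 passed and 13 were positive, with a median of 0.26. Tgfbr3, a TGF-beta co-receptor, was at 0.62 ± 0.14 (edgeR adjusted p = 0.0789). The 6 type IV genes, the basement-membrane collagens left out of the members, were all positive with a median of 0.85, and 0 passed. Col4a4 was at 0.77 ± 0.20 (edgeR adjusted p = 0.107) and Col4a3 at 0.93 ± 0.26 (edgeR adjusted p = 0.117). Summed type IV levels were 867, 337 and 400.3 CPM in MP libraries, against 291, 206 and 255 CPM in Ctrl libraries, with MP1 again the highest library. Without Ctrl1, edgeR called 7 of the 21 TGF-beta and fibrogenic genes higher and 1 lower (median 0.46). In the same fit 1 fibril-binding gene (median 0.39) and 2 type IV genes (median 1.0) were called higher. That fit called 6.08% of all genes higher and 6.99% lower.

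Markers of the cells that make collagen varied between libraries, in part as the collagens did. The 13 fibroblast and fibro-adipogenic progenitor markers summed to 1656, 2269 and 2195 CPM in MP1 to MP3, against 1809, 1130 and 1783 CPM in Ctrl1 to Ctrl3. Ctrl2, the library with the lowest collagen levels, was lowest here too, whereas MP1, the library with the highest, was the lowest MP library. Of these 13 markers 0 passed and 11 were positive (median 0.34), led by Dpep1 (0.84 ± 0.19, edgeR adjusted p = 0.0797) and Pdgfra (0.78 ± 0.20, edgeR adjusted p = 0.102). The 8 endothelial markers summed to 719, 367 and 391 CPM in MP libraries, against 393, 294 and 340.1 CPM in Ctrl libraries, so that MP1 was high in vessel markers and in collagens. Of these 8, 0 passed and 8 were positive (median 0.52), with Cdh5 at 0.71 ± 0.29 (edgeR adjusted p = 0.222) and Kdr at 0.79 ± 0.33 (edgeR adjusted p = 0.228). The 8 smooth muscle and pericyte markers gave 0 calls and 6 positive values (median 0.56), with Notch3 at 0.81 ± 0.20 (edgeR adjusted p = 0.0977) and Myh11 at 0.66 ± 0.17 (edgeR adjusted p = 0.1004). Without Ctrl1, edgeR called 4 fibroblast markers higher (Dpep1, Pdgfra, Cxcl14 and Lum; list median 0.42), 0 endothelial markers (median 0.65) and 1 smooth muscle and pericyte marker, Notch3 (median 0.56). Over all genes, that fit called 6.08% higher and 6.99% lower. The part of these cells in the collagen values was not tested.

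Of 10 tendon and myotendinous junction markers 0 passed and 7 were positive, with a median of 0.31. Tigd4 was at -0.87 ± 0.23 (edgeR adjusted p = 0.105) and Ankrd1 at 1.08 ± 0.30 (edgeR adjusted p = 0.120). Of 10 cartilage and bone markers, which would mark skeletal tissue in the sample, only Sox9 was high enough to test (-0.93 ± 0.27, edgeR adjusted p = 0.129), and the list summed to 1.56 to 2.08 CPM in MP libraries and 2.30 to 3.71 CPM in Ctrl libraries. Of 9 satellite cell markers 2 rose, 0 fell and 7 were positive, with a median of 0.82. These were Calcr, the calcitonin receptor that in mouse satellite cells is bound by type V collagen, with 1.63 ± 0.200 CPM in MP libraries and 0.374 ± 0.0421 CPM in Ctrl libraries (2.10 ± 0.31, edgeR adjusted p = 0.0324), and Fgfr4, with 8.48 ± 0.707 CPM in MP libraries and 3.38 ± 0.867 CPM in Ctrl libraries (1.32 ± 0.23, edgeR adjusted p = 0.0463). All 3 MP libraries and no Ctrl library were over the low-count filter's 0.428 CPM for Calcr, so it entered the test through the group where it was high. Of 14 tested neuromuscular junction and denervation genes 0 passed and 11 were positive (median 0.47), with Chrna1 at 0.79 ± 0.14 (edgeR adjusted p = 0.0512) and Lrp4 at 0.91 ± 0.17 (edgeR adjusted p = 0.0522). Without Ctrl1, edgeR called 6 satellite cell markers higher (median 1.20) and did not call Sox9. In the same fit 3 neuromuscular junction genes were called higher and 1 lower (median 0.47). Of the tendon markers 1 was called higher and 1 lower (median 0.36). Beside these, 6.08% of all genes were called higher and 6.99% lower.

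None of the macrophage, adipocyte, lymphocyte, Schwann cell or muscle fibre markers passed with all 6 libraries. Median log2 fold changes were 0.24 for the macrophage list, 0.07 for the adipocyte list, -0.05 for the Schwann cell list and -3.37 for the lymphocyte list, whose 5 tested genes were all highest in Ctrl1. Without Ctrl1 these medians were 0.61, 0.94, 0.0053 and 1.80 in the same order, and edgeR called Mrc1, a macrophage marker, Plin1, an adipocyte marker, and Cd4, a lymphocyte marker, higher in MP libraries. Cd4 then rested on 13, 16 and 7 counts in MP libraries, against 1 and 1 counts in Ctrl2 and Ctrl3. The genes of this fit were those kept by the low-count filter with all 6 libraries. Cd4 was kept through MP libraries and Ctrl1, so with Ctrl1 left out it stayed only through the group where it was high. The fit without Ctrl1 called 6.08% of all genes higher and 6.99% lower. The 8 macrophage markers summed to 171 to 250 CPM in MP libraries and 102 to 273 CPM in Ctrl libraries, and the 6 adipocyte markers to 696 to 1144 CPM in MP libraries and 406 to 908 CPM in Ctrl libraries. The defining genes of gastrocnemius fibres were present throughout. The 8 skeletal muscle fibre markers summed to 103304 to 123307 CPM in MP libraries and 98256 to 144979 CPM in Ctrl libraries. Their median log2 fold change was -0.21, or -0.32 without Ctrl1. No gene of these lists was at 0 in all 6 libraries.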

How the data were processed

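Per the labels, RNA was extracted with Trizol and libraries were made with an NEBNext Ultra kit from 3 µg of RNA. HISAT2 2.0.5, featureCounts 1.5.0-p3 and the build GRCm38 are named, with no role or order, per the submitters' processing notes. The release of the annotation and the strand setting of the counting were not given in the sources used here. The deposited counts are whole numbers per gene, per the file headers, and the deposited FPKM values were scaled by the authors to gene length and library size. No label gives the transgene's species or sequence, so its reads count at a mouse gene only where they match. Coordinates are those of the deposited table, and all 38 members have the same coordinates in GENCODE M21.

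The test was that of edgeR 4.0.16 under R 4.3.3 (TMM scaling, filterByExpr, quasi-likelihood test), fitted to all 14973 genes kept, with Benjamini-Hochberg adjustment at 0.05. P-values are two-sided. Errors after log2 fold changes are SEs, taken as the fold change's size over the root of F, and errors after CPM values are SDs over 3 libraries. Alternatives were DESeq2 1.42.0, limma-voom and limma-trend (limma 3.58.1, on log2(FPKM + 1) and log2(FPKM + 0.1)), other scalings, filters and thresholds, a replicate block, and fits without each library. The scripts were tested on simulated data. A count of 3 corresponds to 0.120 to 0.145 CPM, and intervals from counts cover counting error only.

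Values in every library are given for members with groups that did not overlap, the 8 with the highest FPKM and the main chains of types I, III, V and VI. Col7a1, Col15a1, Col17a1, Col22a1 and others outside this rule were named after their values were seen. Of each of 20 related lists, genes past the threshold, or else those with the lowest p, are named. One gene that this rule took is not reported here. The members and lists were chosen with earlier results of these data known. Sequences come from RefSeq, where 8 members have no entry in the table used.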

Additional observations from a re-analysis of the deposited data

How the results depend on the processing

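The count of calls over all genes depended on the libraries and the tool. It was 194 in the reported fit, 1075 with DESeq2, 124 with no filter on low counts, 112 with limma on log2(FPKM + 1), 121 on log2(FPKM + 0.1), 739 at a threshold of 0.1 and 1 at 0.01. Fits without 1 library gave 0 to 1956 calls, the highest without Ctrl1 and the lowest without Ctrl3. Collagen members called higher numbered 0 in the reported fit, 3 with DESeq2, 1 with at least 10 counts in every library of 1 group, 2 at a threshold of 0.1 and 0 to 6 without 1 library, and members called lower numbered 0 to 1 without 1 library. Over all 34 tested members, the sign of the log2 fold change held in every fit without 1 library for 22 and changed in at least 1 for 12, none of which was called in any of these fits. These were Col1a1, Col1a2, Col11a1, Col11a2, Col2a1, Col27a1, Col12a1, Col14a1, Col22a1, Col8a2, Col23a1 and Col26a1. Of the 96 values without 1 library for the 16 members given in every library by the naming rule, 2 changed sign, both without MP1: Col1a1 ranged from -0.11 to 0.57 and Col1a2 from -0.15 to 0.39, and of 143 values under other settings 0 did. Scaling by library totals alone moved the median over all genes, as a log2 fold change, to 0.12, from -0.03, and that of the members to 0.40. The causes were not tested. Fitting a replicate block by number gave 5 calls over all genes and 0 among the members. Deviations of same-numbered libraries correlated at -0.17 to 0.16, and those of differently numbered MP and Ctrl libraries at -0.17 to 0.18. The labels do not say that the number pairs samples, and these values cannot decide it. Summed levels of the structural groups moved by less than 1 SD with CPM in place of FPKM or without the highest member. The CPM and the deposited FPKM carry nearly the same library scaling, so the change to CPM is not a check on scaling. For genes with few counts, such as Col17a1 and Col6a4, counting error limits what these depths can show.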
